A study of Spinacia oleracea with 12 samples.

Results

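Spo21624 is a spinach gene annotated by the study as a putative oxaloacetate acetylhydrolase and named OXAC2. It was chosen by its identifier, as 1 of the 25495 genes of the deposited table, and its values in all 12 libraries are described here. The 4 groups were leaf and root of PI175311, an accession with high oxalate, and leaf and root of Bloomsdale, a cultivar with low oxalate, each with 3 RNA libraries made from independent plants 6 weeks old. All plants were grown in a chamber at 23 °C with 12 h of light. The sample labels give a nitrogen level of 200 ppm for every plant, whereas the paper describes a nitrogen-free nutrient solution. No treatment, transgene or single isolated allele defines the groups, so the genotype comparison is between 1 accession and 1 cultivar that differ across the genome. The other putative oxaloacetate acetylhydrolase genes were not analysed here, because the text gives no identifier for them, and reads shared with a near-identical copy would make the values of Spo21624 uncertain.

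Oxalate is the dianion of a small dicarboxylic acid that spinach stores in large amounts, mostly as calcium salts. Oxaloacetate acetylhydrolase splits oxaloacetate into oxalate and acetate, and the enzyme is characterised in filamentous fungi, whereas the function of the plant genes that carry the name is not established. Isocitrate, glycolate, glyoxylate and ascorbate are other proposed sources of oxalate in plants, and oxalyl-CoA synthetase opens a route by which oxalate is broken down.

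Values were FPKM, fragments scaled to the length of the gene and the total of the library, as deposited. The table keeps enough digits to solve for the whole fragments behind each value, and the library totals came to between 18451262 and 25245734 fragments. Spo21624 had between 31 and 6857 fragments in a library, over a length of 1464 bases implied by its values. Log2 FPKM of replicates correlated across genes with r between 0.938 and 0.989 within the groups, and no pair of libraries was identical. Intervals given for single libraries cover counting error only.

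Spo21624 was an abundant leaf transcript in both genotypes and a scarce one in roots. In leaves of PI175311 it had 80.1, 220.4 and 118 FPKM, from 2673, 6857 and 4369 fragments. In leaves of Bloomsdale it had 108, 71.6 and 125 FPKM, from 3760, 2141 and 4229 fragments. The highest and the lowest of these 6 leaf values were PI175311 leaf 2 and Bloomsdale leaf 2, and the genotypes overlapped.

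In roots of PI175311 the gene had 6.47, 8.26 and 10.3 FPKM, from 235, 223 and 338 fragments. In roots of Bloomsdale it had 0.946, 1.09 and 6.11 FPKM, from 31, 35 and 220 fragments. Bloomsdale root 3 stood apart from the other Bloomsdale roots and lay next to the lowest root of PI175311. Its counting interval ran from 5.33 to 6.97 FPKM, against 0.643 to 1.34 FPKM in Bloomsdale root 1 and 0.761 to 1.52 FPKM in Bloomsdale root 2, so counting error alone did not cover the gap within this group.

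**Figure D1:**
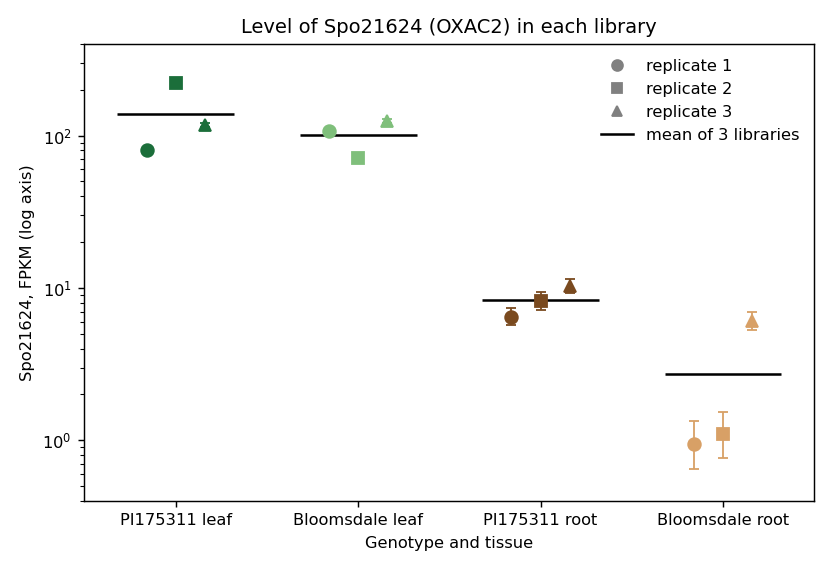
FPKM of Spo21624 on a log axis in each of the 12 libraries, grouped by genotype and tissue, with exact Poisson 95% intervals (counting error only) as bars and group means as lines. Leaves lie between 71.6 and 220.4 FPKM, roots of PI175311 between 6.47 and 10.3 FPKM, and Bloomsdale roots at 0.946, 1.09 and 6.11 FPKM.

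The group means were 139.6 ± 72.6 FPKM in PI175311 leaves, 101 ± 27.1 FPKM in Bloomsdale leaves, 8.35 ± 1.92 FPKM in PI175311 roots and 2.72 ± 2.94 FPKM in Bloomsdale roots (SD, n = 3 each). The order of the groups was therefore leaf before root, and the neighbours in this order within a tissue did not differ past the threshold of the tests. Among all genes of a leaf library Spo21624 ranked 1125, 355 and 638 from the top in PI175311 and 802, 1466 and 762 in Bloomsdale. In roots it ranked 11587, 10538 and 8887 in PI175311 and 18046, 17787 and 12683 in Bloomsdale. Against the median gene above 0 in the same library it was 11.9-fold, 36.7-fold and 21.8-fold higher in PI175311 leaves and 17.8-fold, 9.28-fold and 20.1-fold higher in Bloomsdale leaves. The same ratio was 0.846, 1.01 and 1.35 in PI175311 roots and 0.106, 0.118 and 0.688 in Bloomsdale roots. Spo21624 thus stood near the median gene in PI175311 roots and below it in Bloomsdale roots.

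The spread among replicates was wide in 2 of the groups. The SD of log2(FPKM + 0.1) was 0.74 in PI175311 leaves, 0.41 in Bloomsdale leaves, 0.33 in PI175311 roots and 1.43 in Bloomsdale roots. A smaller SD was found for 87.9% of genes tested in PI175311 leaves, 65.8% in Bloomsdale leaves, 47.7% in PI175311 roots and 98.6% in Bloomsdale roots. Among genes within 2-fold of its mean in Bloomsdale roots, 98.0% varied less. The level in roots of PI175311 was the most even of the groups, with a coefficient of variation of 23.0%, against 108% in Bloomsdale roots.

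The leaf comparison asked whether the high-oxalate genotype carries more of this transcript where oxalate is stored. No genotype difference was called in leaf. The log2 fold change, PI175311 minus Bloomsdale, was 0.37 (SE 0.39, 95% interval -0.54 to 1.28, adjusted p = 0.592 by limma), and 10.1% of the 16764 genes tested were called, 4.04% as higher and 6.08% as lower in PI175311. The exact two-sided permutation test of the 6 values gave p = 0.50, where 0.10 is the smallest it allows with 3 libraries against 3. The interval leaves room for a higher as well as a lower level in PI175311. The ratio of mean FPKM was 1.38, and 3123 of the genes tested had a larger log2 fold change. The direction depended on 1 library, since without PI175311 leaf 2 the log2 fold change was -0.020 (adjusted p = 0.980).

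In root the transcript was higher in PI175311 by the means, but the difference did not pass the test over the 6 libraries. The paper reports Spo21624 as upregulated in PI175311 roots. Its calls came from DESeq on read counts at an adjusted p under 0.05, whereas the test here was limma on log2 FPKM. The log2 fold change, PI175311 minus Bloomsdale, was 2.07 (SE 0.71, 95% interval 0.35 to 3.78, adjusted p = 0.101 by limma), and 12.6% of the 18197 genes tested were called, 2.93% as higher and 9.7% as lower in PI175311. The mean FPKM was 3.07-fold that of Bloomsdale roots, and 439 genes tested had a larger log2 fold change, against a median over all genes of -0.23. Each PI175311 root lay above each Bloomsdale root, a pattern shown by 8.77% of the genes tested, and the exact two-sided permutation test gave p = 0.10, its smallest value. The gap was narrow, with 6.47 FPKM in the lowest PI175311 root and 6.11 FPKM in the highest Bloomsdale root, a ratio of 1.06.

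The root result turned on Bloomsdale root 3. Without it the Bloomsdale mean was 1.02 FPKM and the log2 fold change was 2.89 (SE 0.30, 95% interval 2.14 to 3.65, adjusted p = 0.0178 by limma), past the threshold of 0.05. With the 12 libraries in 1 fit, which gives every group the same spread, the log2 fold change of 2.07 had an SE of 0.60 and an adjusted p of 0.0436. Leaving out any other single root gave values between 1.61 and 2.24 that were not called. Bloomsdale root 3 was at least 2-fold above both other Bloomsdale roots for 772 of the 18197 genes tested in root, or 4.24%. For 156 of these 772 genes, Spo21624 among them, all PI175311 roots also lay above all Bloomsdale roots. Over all genes tested in root this held for 1595 of 18197, or 8.77%. The rule was set after the values of Spo21624, so its place among the 156 is description only.

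**Figure D2:**
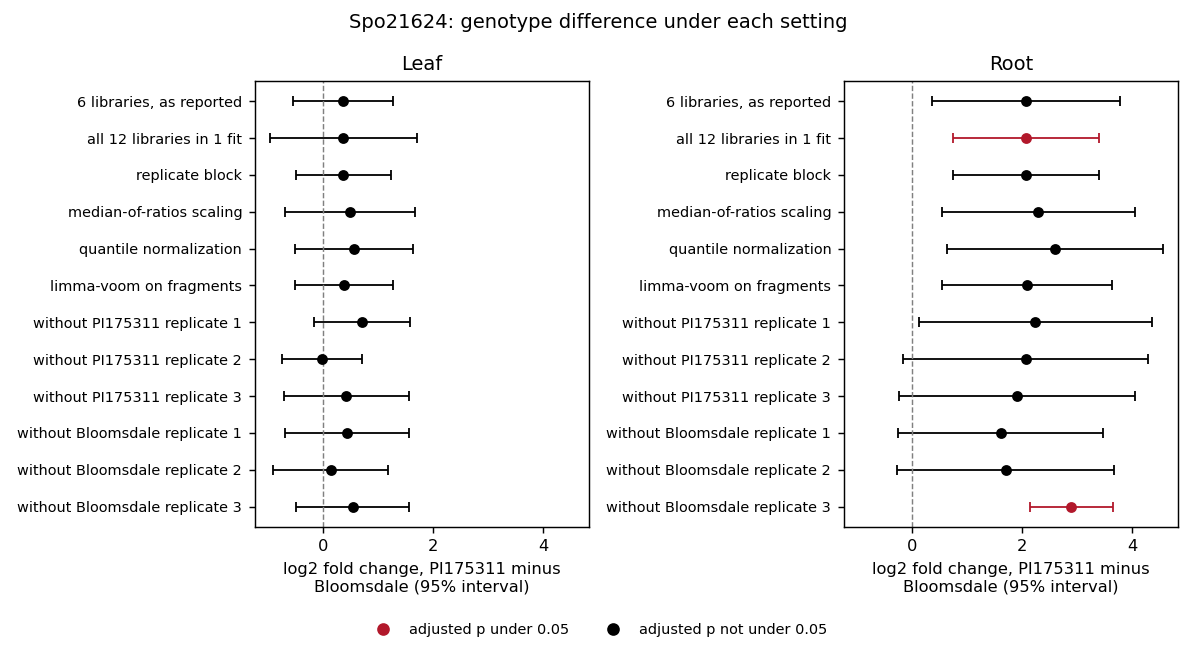
Log2 fold change of Spo21624, PI175311 minus Bloomsdale, with its 95% interval in leaf and in root, under the reported fit and 11 alternatives, in red where the adjusted p was under 0.05. The leaf values run from -0.020 to 0.71, and in root only the fit of all 12 libraries (2.07) and the one without Bloomsdale root 3 (2.89) were called.

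Leaf and root were compared within each genotype to measure the tissue preference of the transcript. Spo21624 was higher in leaf than in root in both genotypes. In PI175311 the leaf mean was 16.7-fold the root mean, and the lowest leaf had 7.77-fold the value of the highest root. The log2 fold change, leaf minus root, was 3.95 (SE 0.60, 95% interval 2.61 to 5.28, adjusted p = 2.54e-04 by limma). In this comparison 63.4% of the 19549 genes tested were called, 15.9% as higher and 47.5% as lower in leaf, and 822 genes had a larger log2 fold change than Spo21624.

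In Bloomsdale the leaf mean was 37.3-fold the root mean, and the lowest leaf had 11.7-fold the value of the highest root. The log2 fold change, leaf minus root, was 5.64 (SE 0.60, 95% interval 4.31 to 6.98, adjusted p = 1.59e-05 by limma), with 64.6% of genes called, 14.6% as higher and 50.0% as lower in leaf. Of the genes tested, 444 had a larger log2 fold change. The groups did not overlap in either genotype, as for 16.7% of genes with leaf above root in PI175311 and 16.7% in Bloomsdale, and the exact two-sided permutation test gave p = 0.10 in both, its smallest value. The medians over all genes were -0.64 in PI175311 and -0.70 in Bloomsdale, so most genes moved the other way on this scale. In bulk tissue, fewer cells that carry a transcript and less of it per cell cannot be told apart.

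The preference for leaf was larger by value in Bloomsdale, but the difference between the genotypes did not pass the test. The interaction, the leaf minus root change in PI175311 minus that in Bloomsdale, was -1.70 on the log2 scale (SE 0.86, 95% interval -3.58 to 0.19, adjusted p = 0.358 by limma), with 2.26% of the genes called. Root held 5.98% of the genotype's own leaf mean in PI175311 and 2.68% in Bloomsdale. Without Bloomsdale root 3 the interaction was -2.52 (adjusted p = 0.0494), at the edge of the threshold, and it was not called when that library was left out and libraries were rescaled or the recovered fragments were tested.

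The split of calls over all genes moved with the scaling, while the calls of Spo21624 did not. With median-of-ratios scaling the median of all genes shifted to -0.10 in the leaf minus root comparison of PI175311 and to -0.06 in that of Bloomsdale, and the log2 fold changes of Spo21624 were 4.50 and 6.26. The calls over all genes were then 4561 higher and 4966 lower in leaf in PI175311, against 3108 and 9295 as deposited, and 4440 and 4986 in Bloomsdale, against 2853 and 9783. For PI175311 minus Bloomsdale they were 954 higher and 850 lower in leaf, against 678 and 1020 as deposited, and 679 and 764 in root, against 534 and 1765. The root difference of Spo21624 was 2.29 with this scaling and 2.59 with quantile normalization, and neither was called (adjusted p = 0.105 and 0.101).

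Genes abundant in leaf can be detected in roots, so the root level of Spo21624 was set beside that of the 100 genes highest in the leaf libraries. In PI175311 roots these genes had medians of 3.00%, 1.22% and 1.10% of their means over the 6 leaf libraries, while Spo21624 had 5.37%, 6.85% and 8.56%. In Bloomsdale roots the medians were 1.01%, 0.320% and 1.07%, while Spo21624 had 0.786%, 0.907% and 5.07%. Spo21624 lay above the median of the leaf-abundant genes in 5 of the 6 roots and below it in Bloomsdale root 1. Between 47 and 68 of the 100 genes had a smaller root share than Spo21624 in a library.

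How the leaf-abundant genes ran beside Spo21624 among the roots depended on the measure. Their summed FPKM was 141994, 80547 and 205920 in PI175311 roots and 38138, 22383 and 46628 in Bloomsdale roots, so the root with the highest Spo21624 of each genotype, root 3 in both, also had the highest sum. The 75th percentile of their root share was highest in the same libraries, at 25.7%, 19.0% and 53.5% in PI175311 roots and 7.40%, 2.15% and 9.19% in Bloomsdale roots. The median share was not, since it was largest in PI175311 root 1, which had the lowest Spo21624 of its group, and Bloomsdale roots 3 and 1 were close at 1.07% and 1.01%. In both genotypes the lowest sum was in root 2, where Spo21624 lay between the other roots. In leaves the sum was 524014 to 615209 in PI175311 and 398873 to 549123 in Bloomsdale. All roots of PI175311 had a higher sum than all roots of Bloomsdale, as they had of Spo21624, and the part of these genes in the root difference and in the level of Bloomsdale root 3 was not tested. The labels and the paper give no marker gene of leaf or root cell types by identifier, so tissue identity was not checked further.

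**Figure D3:**
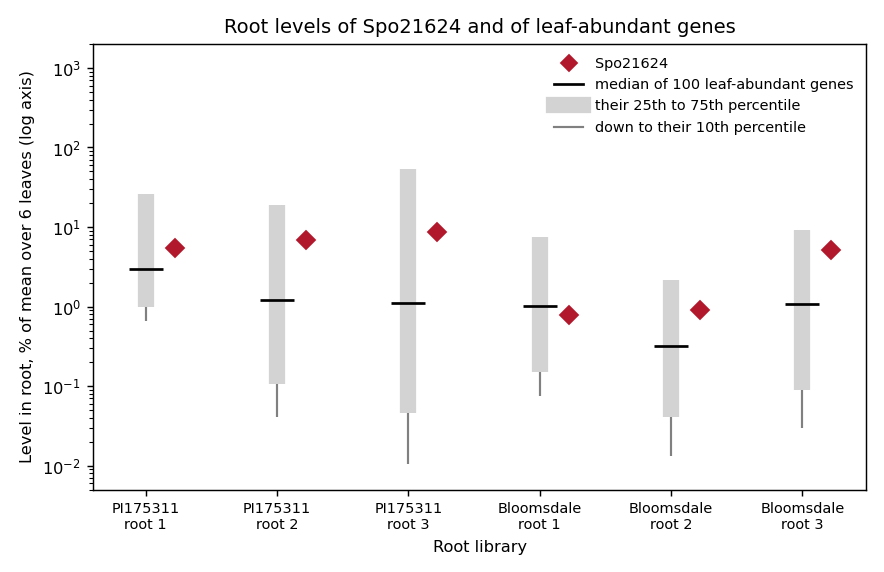
Level in each root library as a percent of the mean over the 6 leaf libraries, on a log axis, for Spo21624 (diamonds) and for the 100 genes highest in leaf (line for the median, box for the quartiles, thin line toward the lowest genes). Spo21624 lies at 5.37% to 8.56% in PI175311 roots and at 0.786%, 0.907% and 5.07% in Bloomsdale roots, against medians of the leaf-abundant genes between 0.320% and 3.00%.

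The text of the paper gives identifiers for 14 other genes of oxalate metabolism, and Spo21624 was set among them. By mean FPKM it ranked 2 of these 15 genes in PI175311 leaves, 3 in Bloomsdale leaves, 10 in PI175311 roots and 11 in Bloomsdale roots. The gene above it in every group was Spo08328, an ascorbate peroxidase, which uses ascorbate to remove hydrogen peroxide. The other gene above it in Bloomsdale leaves was Spo19759, annotated as oxalate decarboxylase-like, with a mean of 125 FPKM.

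Among the genes for oxalate synthesis and ascorbate oxidation, the tissue direction of Spo21624 was opposite to that of isocitrate lyase, Spo13898, which splits isocitrate into glyoxylate and succinate. Isocitrate lyase was lower in leaf, with a leaf minus root log2 fold change of -3.25 in PI175311 (adjusted p = 1.52e-04) and -6.82 in Bloomsdale (adjusted p = 4.45e-07), where its leaves held 0, 0 and 1 fragments and the size depends on the 0.1 FPKM added. The ascorbate oxidases Spo12052 and Spo12053, which oxidise apoplastic ascorbate, were higher in leaf in PI175311, by 4.33 and 4.31 (adjusted p = 0.00159 and 0.00263), and were the only listed genes with a larger preference for leaf there than Spo21624. In Bloomsdale no listed gene had a larger one.

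Of the listed genes, 13 passed the filter on low values in the leaf and root comparison. In PI175311, 3 of them were called higher in leaf, 3 lower and 7 not called, with a median log2 fold change of -0.10, where 15.9% of all genes tested were called higher and 47.5% lower, with a median of -0.64. In Bloomsdale 1 was called higher, 5 lower and 7 not called, with a median of -0.19, where 14.6% of all genes were called higher and 50.0% lower, with a median of -0.70. The call as higher in both genotypes belonged to Spo19759, at 2.41 in PI175311 and 1.59 in Bloomsdale (adjusted p = 2.69e-05 and 4.84e-04). Alanine-glyoxylate aminotransferase, Spo12360, which turns glyoxylate into glycine, was lower in leaf, at -3.90 in PI175311 and -6.29 in Bloomsdale (adjusted p = 1.56e-05 and 3.36e-07). AAE3, Spo04424, the oxalyl-CoA synthetase, was at -0.10 in PI175311 and -0.21 in Bloomsdale and was not called. With median-of-ratios scaling 5 were called higher in PI175311, and in Bloomsdale 2 were called lower with that scaling and 3 with quantile normalization.

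The listed genes were also compared between genotypes. Of 9 tested in leaf, 5 were called higher in PI175311 and 0 lower, with a median log2 fold change of 1.24, where 4.04% of all genes tested were called higher and 6.08% lower, with a median of -0.12. They were Spo08328 (3.37), Spo12052 (2.87), Spo12053 (2.74), Spo12360 (2.37) and Spo21149 (1.24), the last a multifunctional protein of fatty acid beta-oxidation, with adjusted p-values from 0.00440 to 0.0337. The study chose the listed genes with results of the same samples in view, so their direction is no independent evidence. Leaving out PI175311 leaf 1 or 3, or Bloomsdale leaf 1 or 3, brought the count down to 3. In root, 10 were tested, 1 was called higher and 0 lower, with a median of -0.12, where 2.93% of all genes were called higher and 9.7% lower, with a median of -0.23. That gene was ascorbate peroxidase Spo08328, at 2.50 (adjusted p = 0.0456 by limma). It was the only 1 of the 10 tested with a larger root log2 fold change than Spo21624. Not tested in root were the reductase-like genes Spo04579, Spo00830 and Spo26769. These had means of 13.2, 3.33 and 1.80 FPKM in PI175311 roots, against 0, 0 and 0.0161 FPKM in Bloomsdale roots. Spo04579 and Spo00830 each had a lowest PI175311 root of 0 FPKM. The call of Spo08328 was lost when any single root was left out of the reported fit, with adjusted p from 0.0547 to 0.146. Among the other alternatives the call was kept in 7 and lost in 5. It was lost with median-of-ratios scaling (adjusted p = 0.0515 by limma) and with quantile normalization (adjusted p = 0.0584 by limma). With the replicate number as a block, Spo08328 was called (adjusted p = 0.0226) and Spo19759, at -1.09, was also called as lower (adjusted p = 0.0208, against 0.0591 without the block).

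**Figure D4:**
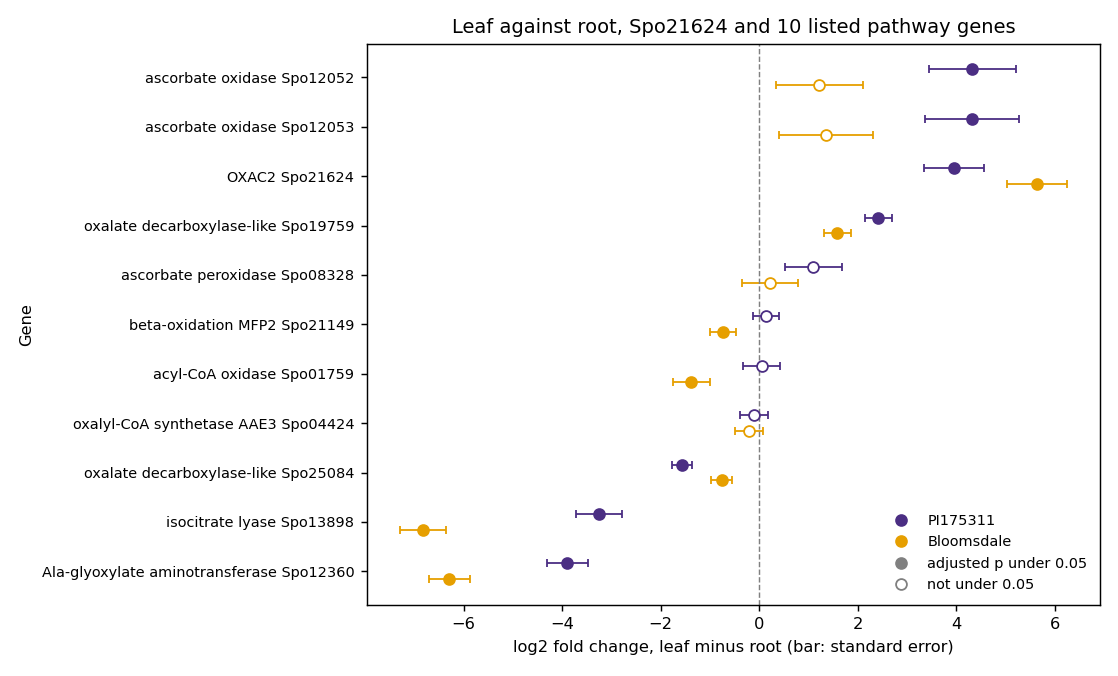
Log2 fold change, leaf minus root, of Spo21624 and 10 listed genes in PI175311 and in Bloomsdale, with standard errors as bars and filled points where the adjusted p was under 0.05. Spo21624 lies at 3.95 in PI175311 and 5.64 in Bloomsdale, and the ascorbate oxidases at 4.33 and 4.31 in PI175311 are the only genes beyond it in that genotype.

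A ratio of genes within a library does not depend on how the libraries are scaled. The FPKM of Spo21624 was 0.764, 2.86 and 0.974 times that of AAE3 in PI175311 leaves and 1.69, 0.917 and 3.29 times in Bloomsdale leaves. In roots the ratio was 0.0509, 0.0682 and 0.130 in PI175311 and 0.0132, 0.0166 and 0.0994 in Bloomsdale. The genotypes overlapped in both tissues by this measure, while leaf and root did not overlap in either genotype. Against isocitrate lyase, Spo21624 was 85.2, 734 and 242.5 times as high in PI175311 leaves, and in Bloomsdale leaves the ratio had no usable denominator. In roots this ratio was 1.34, 1.31 and 1.57 in PI175311 and 0.160, 0.0725 and 0.327 in Bloomsdale, without overlap. Isocitrate lyase, its denominator, was itself lower by value in PI175311 roots (log2 fold change -1.01, adjusted p = 0.171 by limma), so the gap does not belong to Spo21624 alone. The share of gene pairs without overlap was not computed for either ratio.

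Genes that followed Spo21624 were sought with Pearson r of log2(FPKM + 0.1) over the 6 libraries of a tissue, 3 of each genotype, so r holds the genotype difference as well as the spread among replicates, and it is given as a description with no test. In leaf few genes followed it. Only 2 of 16763 genes had r above 0.95, where the median gene had 149 such partners and 0.519% of genes had fewer. The closest were Spo11583 (0.958), Spo02318 (0.951), Spo25524 (0.95), Spo07915 (0.946) and Spo04967 (0.941), none of them annotated in the sources used here. Spo02318 ran from 1006 FPKM in PI175311 leaf 1 to 5703 FPKM in PI175311 leaf 2, the library in which Spo21624 was also highest. Without that library 3 of these 5 genes stayed among the first 100.

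In root 83 of 18196 genes had r above 0.95, against a median of 121 partners for a gene, and 42.2% of genes had fewer. The closest were Spo26283 (0.996), Spo27228 (0.994), Spo00094 (0.992), Spo03924 (0.989) and Spo24684 (0.989), and these too have no annotation in the sources used here. All 5 were near 0 in Bloomsdale roots 1 and 2 and present in Bloomsdale root 3. Spo27228 had 152, 158 and 208 fragments in PI175311 roots, against 0, 0 and 74 in Bloomsdale roots. Spo00094 had 228, 412 and 498 fragments in PI175311 roots, against 0, 4 and 164 in Bloomsdale roots. Spo03924 had 252, 202 and 288 in PI175311 roots, against 7, 6 and 116 in Bloomsdale roots.

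These 5 root followers were chosen for their high r in root, and the highest leaf r of any gene was 0.958. A lower r in leaf was thus fixed by the choice, and their leaf values are description only. Spo27228 had 118, 1 and 71 fragments in Bloomsdale leaves 1, 2 and 3, and Spo24684 had 76, 0 and 82, so both were at or near 0 in Bloomsdale leaf 2, where Spo21624 still had 2141 fragments. The r of the 5 genes with Spo21624 over the leaf libraries was between 0.389 and 0.680. Of the 83 genes, 24 had 0 fragments in Bloomsdale roots 1 and 2, against 93 of all 18197 genes tested in root. Spo21624 was itself lowest in these roots, so the choice by r favoured genes at 0 there. Of the 24 genes, 19 also had 0 in Bloomsdale leaf 2, as did 81 of the 93, so this was not particular to the followers. The 68 root followers with a leaf value had a median r of 0.39 in leaf, against a median of -0.30 over all genes. Of the 68, 49 were above 0, where 24.4% of all genes were. None of the 68 was above 0.95, a value that only 2 of 16763 genes passed in leaf. The first 100 genes in leaf, out of 16763, and in root, out of 18196, shared 2. The overlap of unrelated lists of this size was not computed, so this count is description only.

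**Figure D5:**
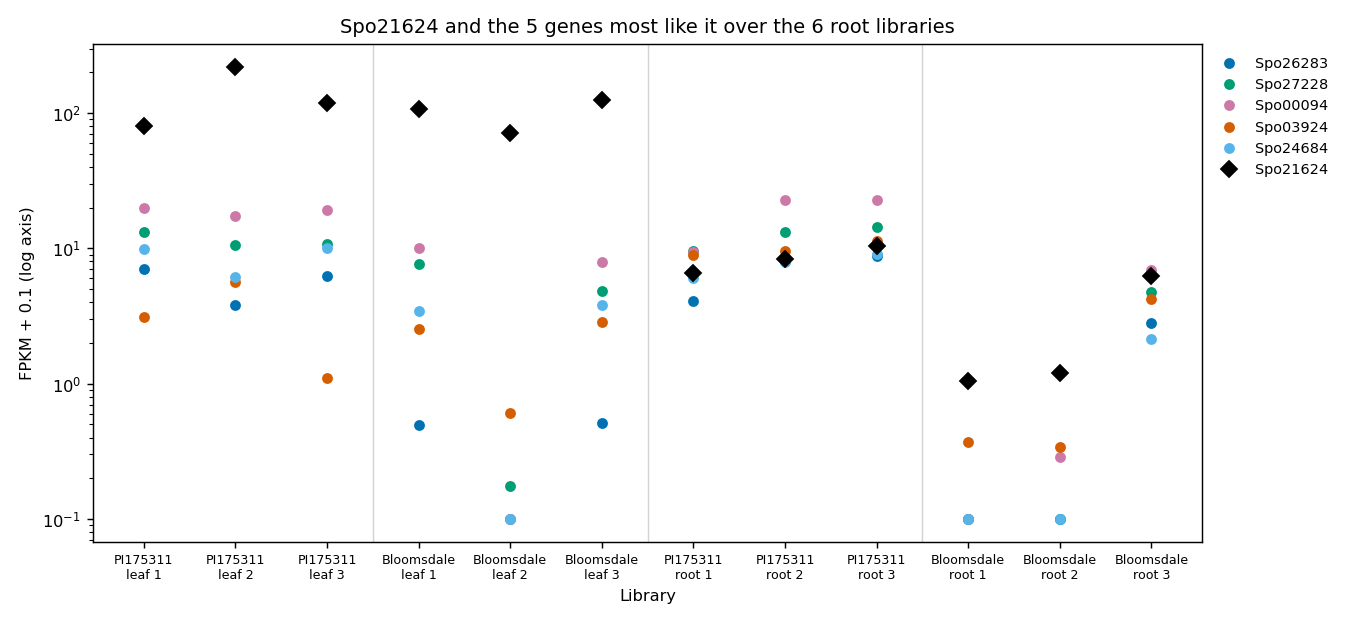
FPKM + 0.1 on a log axis of Spo21624 and the 5 genes most like it over the root libraries, in all 12 libraries. The 5 genes are at or near 0 in Bloomsdale roots 1 and 2 and under 1 FPKM in Bloomsdale leaf 2, while Spo21624 stays at 71.6 FPKM in that leaf.

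Over all 12 libraries r held the gap between leaf and root as well as the differences within each tissue. There 26 of 19548 genes had r above 0.95, with a median of 25 per gene, and the closest were Spo12323 (0.979), Spo05561 (0.972), Spo16092 (0.971), Spo26311 (0.970) and Spo13575 (0.968). Within leaf the r of these genes lay between -0.38 and 0.14. Within root it was higher, at 0.987 for Spo16092, 0.946 for Spo26311 and 0.852 for Spo13575. Spo12323 and Spo05561 did not pass the filter on low values in root. Once group means were taken off, the closest in leaf were Spo13574, Spo19383, Spo07231, Spo05009 and Spo17183, with r from 0.986 to 0.993. Spo19383 had only 11 to 17 fragments in a leaf library. In root the closest were Spo21474, Spo06906, Spo26283, Spo16092 and Spo09845, with r from 0.993 to 0.997. Such r were common. By this measure 38 genes had r above 0.95 in leaf, against a median of 275 per gene, and 147 in root, against a median of 192. Without Bloomsdale root 3, 0 of these 5 root genes stayed among the first 100.

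Among the listed genes, Spo19759 ran against Spo21624 within each tissue, with r of -0.90 in leaf and -0.96 in root, and with it over all 12 libraries, with r of 0.66. Ascorbate peroxidase Spo08328 had r of 0.90 in root and 0.14 in leaf. AAE3 had r of -0.19 in leaf and 0.50 in root.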

How the data were processed

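RNA from 12 libraries was analysed, 3 for each genotype and tissue, grouped by the labels. The deposited values are FPKM per gene, made by the authors. The paper gives alignment to the SpinachBase genome with TopHat 2.0.12 on a Bowtie 2.2.3 index and counting with HTSeq 0.6.1, whereas fastp, HISAT2 2.1.0 and featureCounts stand in the submitters' processing notes. Which of these made the values, and the genome build, are not given in the sources used here. Such differences could shift genes whose reads map to several places.

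Whole fragments were recovered for 21552 of 21554 genes above 0 in at least 6 libraries, at a tolerance of 1e-04 fragments plus 2e-08 of their number, taking the smallest solution. Exact Poisson 95% intervals cover counting error only. Comparisons used limma 3.58.1 in R 4.3.3, with trend and robust options, on log2(FPKM + 0.1), which understates changes of low genes. Genes were tested where 3 or more of the libraries compared had 1 FPKM or more. Genotypes were compared over the 6 libraries of a tissue, and leaf minus root and the interaction came from 1 fit of 12. P-values were adjusted by Benjamini-Hochberg over all genes tested, with a threshold of 0.05. Python 3.11.15 with scipy 1.17.1 gave the exact permutation tests. The code was tested on simulated data.

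The genes named are Spo21624, the 14 genes whose identifiers the text of the paper prints, and the 5 with the highest Pearson r to Spo21624 in leaf, in root, over all libraries, and over deviations from group means in each tissue. The gene, lists and tests were chosen with earlier results of these data known. None of the identifiers was found in the reference annotation used here, so neighbours and followers could not be described by function. The reported fits took no libraries as paired, and the replicate number entered as a block only as an alternative. The deviations of same-numbered PI175311 and Bloomsdale roots from their group means correlated across genes at 0.247, 0.216 and 0.273. In leaf these were 0.056, -0.203 and -0.198. Between leaf and root they were 0.042, -0.182 and -0.183 in PI175311 and -0.146, 0.264 and 0.318 in Bloomsdale. The block was run for every comparison, also where these values were below 0. The alternatives were 1 or 0.01 FPKM added, other filters, median-of-ratios and quantile scaling, another scope of libraries, limma without trend and robust options, a replicate block, limma-voom on fragments, and each library left out.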

Additional observations from a re-analysis of the deposited data

Results flagged for a closer look

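Isocitrate lyase, Spo13898, was the 1 listed gene whose genotype difference was found to differ between leaf and root. Its interaction was 3.56 on the log2 scale (SE 0.66, adjusted p = 0.0241 by limma). It had 0.576 ± 0.329 FPKM in PI175311 leaves and 0.00656 ± 0.0114 FPKM in Bloomsdale leaves, against 5.90 ± 0.951 FPKM in PI175311 roots and 13.2 ± 6.57 FPKM in Bloomsdale roots (SD, n = 3 each). Since Bloomsdale leaves held 0, 0 and 1 fragments, the size depends on the value added before the logarithm, and with 1 FPKM added it was 1.55 (adjusted p = 0.0934). With the recovered fragments it was 6.21 (adjusted p = 0.0851), with the replicate block 3.56 (adjusted p = 0.0746), and without single libraries 3.20 to 4.06 (adjusted p from 0.0240 to 0.0937). Groups of 3 libraries are too small for the test of single outlying samples used here.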

How the results depend on the processing

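The preference of Spo21624 for leaf kept its direction and its call under all 12 single libraries left out and all other alternatives in both genotypes. It ran from 3.55 to 4.50 in PI175311 and from 5.02 to 6.58 in Bloomsdale. Leaving out a library of the other genotype cannot move the estimate and changes only its error, so those fits do not check the direction. In leaf the genotype difference was not called under any alternative, and it turned to -0.020 without PI175311 leaf 2, with a range of -0.020 to 0.71 over the libraries left out. In root it was called with all 12 libraries in 1 fit (2.07, adjusted p = 0.0436) and without Bloomsdale root 3 (2.89), with a range of 1.61 to 2.89 over the libraries left out (adjusted p from 0.0178 to 0.292). It was also called in 2 alternatives added after the data were seen, which left out Bloomsdale root 3 and tested the recovered fragments with limma-voom (2.99) or rescaled by median-of-ratios (3.13). The interaction was called only without Bloomsdale root 3 (-2.52), with a range of -2.52 to -1.24. With the replicate block, the root difference was 2.07 with an adjusted p of 0.0612, and the block changed no call of Spo21624.

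Of the 5 genes most like Spo21624, the number among the first 100 fell to 3 in leaf without PI175311 leaf 2 (range 3 to 5), to 1 over all 12 libraries with Spearman's rho, to 3 for leaf deviations with median-of-ratios scaling, and to 0 for root deviations without Bloomsdale root 3 (range 0 to 5). The cause of these changes was not tested. Over all genes, leaving out 1 library gave 643 to 1950 genotype calls in leaf (1698 with all), 139 to 2179 in root (2299 with all) and 74 to 800 interaction calls (442 with all), fewest without Bloomsdale leaf 1 in leaf and without Bloomsdale root 2 in the others. With 3 libraries a group and 31 and 35 fragments in 2 of the Bloomsdale roots, the root level of that genotype is known only loosely.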
